A study of Mus musculus with 109 samples.

Results

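The bipolar cell genes are 10 genes that mark ON and OFF bipolar cells of the retina or belong to the cascade of the glutamate receptor mGluR6: Grm6, Trpm1, Nyx, Gpr179, Pcp2, Prkca, Cabp5, Vsx1, Gng13 and Car8. They were chosen by name, with no threshold on a measured value, but with earlier results of these data known. Each had 1 row in the count table of 37315 genes, and all 10 passed the filter on low counts in every comparison below. RNA-seq of polyA RNA was performed on 109 whole retinas from 64 mice, of which 45 gave both eyes, and the series text gives an age of 2–4 months. Eyes had been injected intravitreally with PBS, TNF, IL1A or both cytokines (IL1A+TNF). In batch 1 all mice were WT. At day 2 after injection this batch held 31 PBS, 8 TNF, 9 IL1A and 10 IL1A+TNF retinas, at day 14 it held 7 PBS and 6 TNF retinas, and at day 35 it held 6 PBS and 9 TNF retinas. Batch 2, at day 2, held 5 PBS and 6 IL1A+TNF retinas of WT mice and 6 PBS and 6 IL1A+TNF retinas of mice deficient in Sarm1 (labelled Sarm.KO, here Sarm1-/-). WT mice were C57BL/6J per the series text, the Sarm1 deficiency was present in the whole animal, and a PBS eye was often the other eye of a treated mouse. Total counts ranged from 30014757 to 79064488 (median 39374202).

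Bipolar cells are the interneurons that carry the signal of rods and cones to amacrine and ganglion cells. In ON bipolar cells glutamate from the photoreceptor binds mGluR6, the product of Grm6, and the G protein that follows keeps the cation channel TRPM1 closed. In light the release of glutamate falls, the G protein is switched off by RGS proteins held at the dendritic tip by GPR179, and TRPM1 opens. Nyctalopin, the product of Nyx, holds TRPM1 at the synapse, and loss of mGluR6, TRPM1, nyctalopin or GPR179 causes stationary night blindness.

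Promoters are shown for the receptor and the channel of the cascade, for Cabp5, and for Vsx1, the transcription factor of the group. Each is the reference sequence of 250 bases before to 50 bases after a transcript start of RefSeq on GRCm38.p6, written 5′ to 3′ on the strand of the gene. For Vsx1 and Cabp5 that start lies inside the gene as GENCODE bounds it, and for Trpm1 the first of 2 promoters is shown, the other holding no match. Capitals mark TAATCC or its reverse complement GGATTA, the core letters bound by the retinal homeodomain factors OTX2 and CRX.
The promoter of Grm6 is chr11:50850435-50850734 on the plus strand, with no match.
Grm6: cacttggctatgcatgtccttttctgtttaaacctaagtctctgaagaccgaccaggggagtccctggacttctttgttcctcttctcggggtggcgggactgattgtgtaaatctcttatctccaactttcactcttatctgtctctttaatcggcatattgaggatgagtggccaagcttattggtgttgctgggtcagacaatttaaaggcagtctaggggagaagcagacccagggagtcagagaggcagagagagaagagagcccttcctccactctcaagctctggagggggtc
The promoter of Trpm1 is chr7:64153585-64153884 on the plus strand, with a match 34 bases upstream of the start.
Trpm1: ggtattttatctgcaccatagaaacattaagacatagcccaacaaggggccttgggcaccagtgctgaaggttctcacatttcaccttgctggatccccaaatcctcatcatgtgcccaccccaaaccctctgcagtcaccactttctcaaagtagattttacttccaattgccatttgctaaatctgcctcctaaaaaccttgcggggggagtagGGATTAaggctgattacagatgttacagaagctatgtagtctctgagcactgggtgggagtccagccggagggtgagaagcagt
The promoter of Cabp5 is chr7:13397905-13398204 on the plus strand, with matches 160 and 41 bases upstream.
Cabp5: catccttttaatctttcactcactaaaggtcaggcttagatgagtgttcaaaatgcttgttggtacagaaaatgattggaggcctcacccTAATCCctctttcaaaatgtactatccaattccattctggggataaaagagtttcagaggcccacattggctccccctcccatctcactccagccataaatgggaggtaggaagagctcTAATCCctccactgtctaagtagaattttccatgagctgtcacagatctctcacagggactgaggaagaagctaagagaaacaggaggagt
The promoter of Vsx1 is chr2:150689088-150689387 on the minus strand, with no match.
Vsx1: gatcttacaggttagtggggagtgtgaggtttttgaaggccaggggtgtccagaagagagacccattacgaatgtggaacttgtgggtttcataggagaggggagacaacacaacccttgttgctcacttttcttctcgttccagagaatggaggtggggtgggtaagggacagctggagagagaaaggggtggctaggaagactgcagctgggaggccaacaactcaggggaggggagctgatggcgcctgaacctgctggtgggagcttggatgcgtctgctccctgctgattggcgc
The motif was searched on both strands, and no other motif was searched. It was found in 2 of 14 promoters of the group (2 of 9 genes, as no promoter was available for Car8), and in 2320 of 32851 mouse promoters of the same length (7.06%). The promoters shown include those of both genes with a match. A match is a description of letters in the window, and says nothing of binding in these retinas.

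Levels are given as CPM, the count of a gene relative to the total count of its library, after scaling with TMM, which sets the libraries to a common level over most genes. In the 31 PBS retinas at day 2 Trpm1 had 417 ± 56.5 CPM (mean ± SD, n = 31), Prkca 389 ± 47.5, Gpr179 205 ± 21.7, Grm6 137 ± 16.5, Car8 87.9 ± 9.55, Cabp5 69.8 ± 8.45, Pcp2 48.2 ± 7.64, Nyx 30.6 ± 4.57, Vsx1 28.6 ± 3.97 and Gng13 18.5 ± 2.89. Per kb of exon the order was different. Prkca was highest with 43.2 CPM per kb, 7 genes lay between 21.5 (Gpr179) and 28.3 (Trpm1), and Vsx1 (7.54) and Nyx (5.90) were lowest. Across these retinas the genes were only in part alike: the 45 pairs of genes had a median Pearson r of 0.391 on the log2 scale with sex means removed, 41 of 45 were above 0, and the range ran from −0.33 for Trpm1 with Gng13 to 0.86 for Pcp2 with Cabp5. All points share their library, so these values describe the set and were not tested. The smallest count of a member in these retinas was 503 (Gng13), so counting error was small beside the spread between mice.

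The deposited counts carry 2 limits for single genes. Of the exon bases of Pcp2 51.5% lie opposite an exon of Pet100, and of those of Gng13 51.6% lie opposite an exon of Chtf18, on GRCm38. Whether strand was used in counting is not given in the sources used here. How reads over these shared bases were assigned, or whether they were left out, is therefore not known. Grm6 shares 11.1% of its exon bases with the antisense gene Gm12660.

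Before the comparisons, 2 libraries have to be set apart. They are the left, IL1A+TNF eyes of the female Sarm1-/- mice 61924 and 61926. In both of them all 10 bipolar cell genes were below every one of the other 107 retinas, and for Grm6 the levels were 9.14 and 9.06 CPM where the lowest other retina had 54.9 CPM. How many of all genes were below the other 107 retinas was not counted. Sarm1 itself was at 26.0 to 46.5 CPM in Sarm1-/- IL1A+TNF retinas and 37.1 to 52.9 CPM in Sarm1-/- PBS retinas, against 83.9 to 108 CPM and 105 to 124 CPM in the WT retinas of batch 2. The transcript was thus lower in all 12 Sarm1-/- retinas than in every WT retina of batch 2, but not absent. Each result of the Sarm1 experiment is therefore given with and without these 2 libraries. They were picked after their low levels of the 10 genes were seen, so results without them are not independent of that choice. Rod genes summed to 47992 to 72707 CPM in the PBS retinas of batch 1 at day 2.

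IL1A+TNF retinas had lower levels of 9 of the 10 bipolar cell genes than PBS retinas 2 days after injection (limma, Benjamini-Hochberg adjusted p, FDR, under 0.05), while 25.5% of all 19548 genes tested were lower. The median log2 fold change of the 10 genes was −0.39, beside −0.02 over all genes. Vsx1 and Pcp2 fell the most, the receptor Grm6 fell further than the channel Trpm1, and the change of Nyx did not pass the test. In bulk retina fewer bipolar cells and less RNA per bipolar cell cannot be told apart.

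**Figure D1:**
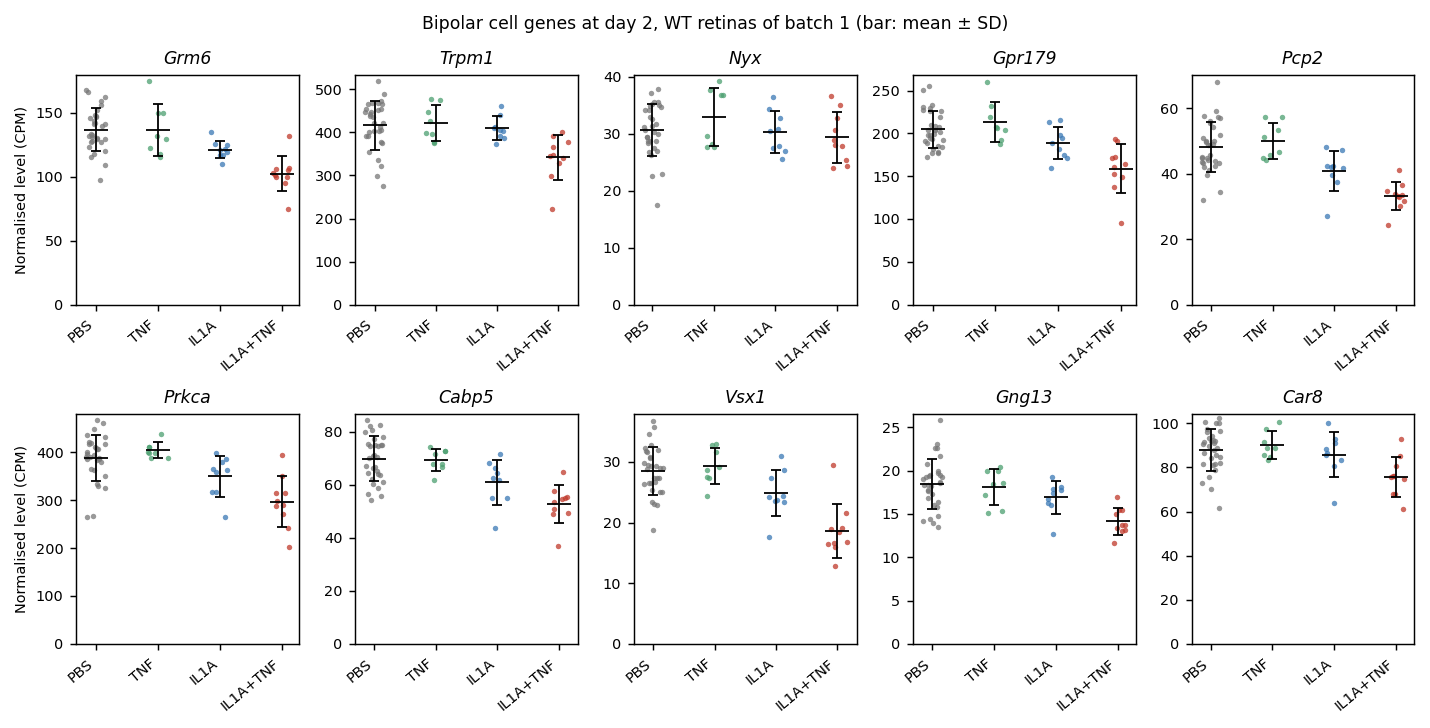
Level of each bipolar cell gene (CPM, linear axes from 0) in each WT retina of batch 1 at day 2, by treatment. Points are retinas and bars mean ± SD. For all genes but Nyx at least 9 of 10 IL1A+TNF retinas lay below the PBS mean, and 1 lay above it for each of Prkca, Vsx1 and Car8. Below every PBS retina were 7 of 10 for Gpr179 and 6 for Vsx1, and for Nyx none left the PBS range.

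Grm6 (ENSMUSG00000000617, chr11:50850685-50866208, plus strand), the receptor, ranged from 97.1 to 167 CPM in the 31 PBS retinas (median 133) and from 74.6 to 132 CPM in the 10 IL1A+TNF retinas (median 102). All 10 treated retinas were below the PBS mean, 2 of them below every PBS retina, and 17 PBS retinas were above every treated one. The gene fell by 0.43 ± 0.06 (SE) on the log2 scale (limma FDR 1.73e-08). Trpm1 (ENSMUSG00000030523, chr7:64153835-64269775, plus strand), the channel that the cascade closes, ranged from 275 to 520 CPM with PBS (median 423) and from 223 to 402 CPM with IL1A+TNF (median 347). All 10 treated retinas were below the PBS mean, 1 was below every PBS retina, and 22 of the 31 PBS retinas were above every treated one. Trpm1 fell by 0.28 ± 0.07 (limma FDR 0.000497).

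Nyx (ENSMUSG00000051228, chrX:13466110-13489313, plus strand), which anchors the channel, ranged from 17.5 to 37.8 CPM with PBS (median 30.7) and from 23.9 to 36.7 CPM with IL1A+TNF (median 28.5). No treated retina left the PBS range, and 3 were above the PBS mean. The difference was −0.08 ± 0.06 on the log2 scale (limma FDR 0.286). Gpr179 (ENSMUSG00000070337, chr11:97332109-97352077, minus strand), which holds the RGS proteins, ranged from 173 to 255 CPM with PBS (median 201) and from 95.3 to 194 CPM with IL1A+TNF (median 162). Here 7 of the 10 treated retinas were below every PBS retina. Gpr179 fell by 0.38 ± 0.06 (limma FDR 1.19e-06).

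Genes of the signalling proteins around the cascade fell as well. Pcp2 (ENSMUSG00000004630, chr8:3623371-3625545, minus strand), a modulator of the G protein, ranged from 32.0 to 68.2 CPM with PBS (median 48.7) and from 24.5 to 41.2 CPM with IL1A+TNF (median 33.3). The highest treated retina was below 28 of the 31 PBS retinas. Pcp2 fell by 0.53 ± 0.08 (limma FDR 5.63e-08). Gng13 (ENSMUSG00000025739, chr17:25717171-25719406, plus strand), the G protein gamma subunit of ON bipolar cells, ranged from 13.5 to 25.9 CPM with PBS (median 18.5) and from 11.6 to 16.96 CPM with IL1A+TNF (median 13.7). It fell by 0.36 ± 0.07 (limma FDR 2.55e-05), with 4 treated retinas below all PBS retinas. Prkca (ENSMUSG00000050965, chr11:107933387-108343928, minus strand), the protein kinase C alpha that labels rod bipolar cells, ranged from 264 to 467 CPM with PBS (median 395) and from 203 to 394 CPM with IL1A+TNF (median 294). One treated retina was above the PBS mean and 16 PBS retinas were above every treated one. Prkca fell by 0.39 ± 0.07 (limma FDR 1.70e-06).

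Car8 (ENSMUSG00000041261, chr4:8143362-8239041, minus strand), a carbonic anhydrase-related protein, had the smallest change among the 9. It ranged from 61.4 to 102 CPM with PBS (median 89.7) and from 61.0 to 92.8 CPM with IL1A+TNF (median 75.8), and fell by 0.21 ± 0.06 (limma FDR 0.00117). Cabp5 (ENSMUSG00000005649, chr7:13398132-13408887, plus strand), a calcium-binding protein of rod bipolar and some cone bipolar cells, ranged from 54.2 to 84.4 CPM with PBS (median 70.7) and from 37.1 to 65.0 CPM with IL1A+TNF (median 54.0). It fell by 0.40 ± 0.06 (limma FDR 2.72e-07), and 5 treated retinas were below all PBS retinas. Vsx1 (ENSMUSG00000033080, chr2:150680702-150689360, minus strand), a homeodomain factor of cone bipolar cells, ranged from 18.8 to 36.7 CPM with PBS (median 29.0) and from 12.8 to 29.4 CPM with IL1A+TNF (median 17.6). Of the treated retinas 6 were below every PBS retina and 1, at 29.4 CPM, was above the PBS mean. Vsx1 fell by 0.61 ± 0.08 (limma FDR 1.63e-09), and it showed the largest change of the 10.

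The retinas themselves differed in step. The right eye of mouse 60212 was the lowest of the 10 IL1A+TNF retinas for all 10 genes, and the right eye of mouse 60780 was the highest for 9 of them. The first had the highest summed level of neutrophil genes (1047 CPM) and of microglial and macrophage genes (483 CPM) in its group, and the second had the lowest microglial sum (265 CPM). The part of these cells in the result was not tested. In the 8 mice with an IL1A+TNF eye and a PBS eye, Pcp2 and Car8 were lower in the treated eye of 8 of 8 mice, Nyx in 6, and each of the other 7 genes in 7. The IL1A+TNF eye had a median of 70.4% of the level of the PBS eye for Grm6, 70.5% for Vsx1 and 90.7% for Nyx.

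Direction depended on what the libraries were scaled to. With scaling to the rod list, 15 rod genes of which 14 fell themselves, the median of all genes moved to 0.54 and that of the 10 genes to 0.19, so that Vsx1 alone kept a value below 0 (−0.04) and 7 genes were called higher. The share of all genes called higher with this scaling is not given here. The median of the 10 genes lay below that of all genes under both scalings. A change of scaling moves all genes by nearly the same amount, so the second scaling is no separate test of this.

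Other genes of bipolar cells and of their synapse were examined beside them. Of 7 further genes of the mGluR6 cascade 5 fell and 1 rose (median −0.27). Rgs9bp, an anchor of RGS9, went from a mean of 1044 to 558 CPM (−0.92 ± 0.07, limma FDR 4.33e-16), Rgs11, a GTPase-activating protein of the cascade, from 59.9 to 42.8 CPM (−0.49 ± 0.07, limma FDR 2.47e-08), and Gnb5, its partner, from 452 to 346 CPM (−0.38 ± 0.05, limma FDR 7.12e-10). Gnb3, a G protein beta subunit of cones and ON bipolar cells, rose instead from 487 to 786 CPM (0.70 ± 0.08, limma FDR 7.76e-11). Rgs9bp, Gnb5 and Gnb3 are also used by photoreceptors. Of 14 transcription factors of bipolar cells 9 fell and 1 rose (median −0.12), with Sebox at −0.48 ± 0.06 and Isl1 at −0.41 ± 0.06, and Irx5, named after its values were seen because it alone rose, at 0.27 ± 0.07. Of 12 other bipolar markers 9 fell and 3 rose, Tacr3 (−0.58 ± 0.07) and Kcng4 (0.69 ± 0.07) at the ends. On the photoreceptor side of the synapse 6 of 9 genes fell and 1 rose, among them Cacna1f, the presynaptic calcium channel, from 476 to 303 CPM (−0.64 ± 0.07).

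Markers of other cells moved in the same retinas. Rod genes fell in 14 of 15 cases (median −0.59) and cone genes in 9 of 9 (−0.78), both further than the median of the bipolar cell genes. Amacrine genes fell in 9 of 10 cases (−0.23) and ganglion cell genes in 10 of 11 (−0.27). Microglial and macrophage genes rose in 10 of 10 cases (1.36) and neutrophil genes in 6 of 6 tested (3.69). Summed neutrophil genes ranged from 191 to 1047 CPM with IL1A+TNF and from 18.2 to 175 CPM with PBS, and summed microglial genes from 265 to 483 CPM and from 69.4 to 168 CPM. How far RNA of entering cells changed the share left to bipolar cells was not tested. Müller glia genes fell in 4 of 9 cases and rose in 3 (−0.13). Pigment epithelium genes fell in 5 of 6 cases (−1.54), with a mean sum of 26.1 CPM with IL1A+TNF and 83.7 CPM with PBS, and none of 7 lens genes tested passed. The part of these cells was not tested either.

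With IL1A alone 2 bipolar cell genes fell, Cabp5 and Pcp2, where 9.45% of all genes were lower, and the median of the 10 was −0.13 beside −0.01 over all genes. Cabp5 ranged from 43.6 to 71.7 CPM in the 9 IL1A retinas (median 62.6) and fell by 0.19 ± 0.07 (limma FDR 0.0250). Pcp2 ranged from 27.2 to 48.2 CPM (median 42.0) and fell by 0.23 ± 0.08 (limma FDR 0.0299). All 9 retinas were below the PBS mean for Pcp2 and 8 of 9 for Cabp5, and both groups overlapped PBS widely. Vsx1 (−0.19 ± 0.08, limma FDR 0.0686) and Grm6 (−0.16 ± 0.06, limma FDR 0.0666) did not pass, and Gpr179 (−0.11 ± 0.07), Prkca (−0.14 ± 0.07) and Gng13 (−0.11 ± 0.07) did not either. Trpm1 (−0.01 ± 0.07), Nyx (0.02 ± 0.07) and Car8 (−0.02 ± 0.06) had the smallest differences. Both calls rested on few libraries: leaving out mouse 60637 left none, leaving out 60216 or 60217 left 1, and leaving out 60641 gave 4. With mouse as a fixed block over the 7 mice with an IL1A eye and a PBS eye 0 of the 10 passed (limma, 1 with an unadjusted p under 0.05), with Cabp5 at −0.21 ± 0.08 and Pcp2 at −0.21 ± 0.10. With scaling to the rod list both changed sign and neither was lower. For the fixed block and the fits with a mouse left out, the share of all genes called is not given here. Rod genes fell in 12 of 15 cases after IL1A (median −0.26) and neutrophil genes rose in 6 of 6 (3.28).

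After TNF alone no bipolar cell gene passed (limma, 0 also at an unadjusted p under 0.05, and 0 by edgeR and DESeq2), with 0.655% of all genes called in either direction. In the 8 mice with a TNF eye and a PBS eye Cabp5 was lower in the TNF eye of 8 of 8, at 82.1% to 97.3% of the PBS eye. With mouse as a fixed block over these mice Cabp5 (−0.11 ± 0.04, limma FDR 0.514), Pcp2 (−0.13 ± 0.05, limma FDR 0.581) and Gng13 (−0.19 ± 0.08, limma FDR 0.593) had an unadjusted p under 0.05 and 0 passed. The share of all genes called with that block is not given here. In the fit without that block the 10 differences lay between −0.03 (Gng13) and 0.11 (Nyx), with standard errors of 0.06 to 0.08. Grm6 was at 116 to 175 CPM in the 8 TNF retinas (median 131) and Vsx1 at 24.3 to 32.9 CPM (median 29.0), both overlapping the PBS retinas over most of their range.

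**Figure D2:**
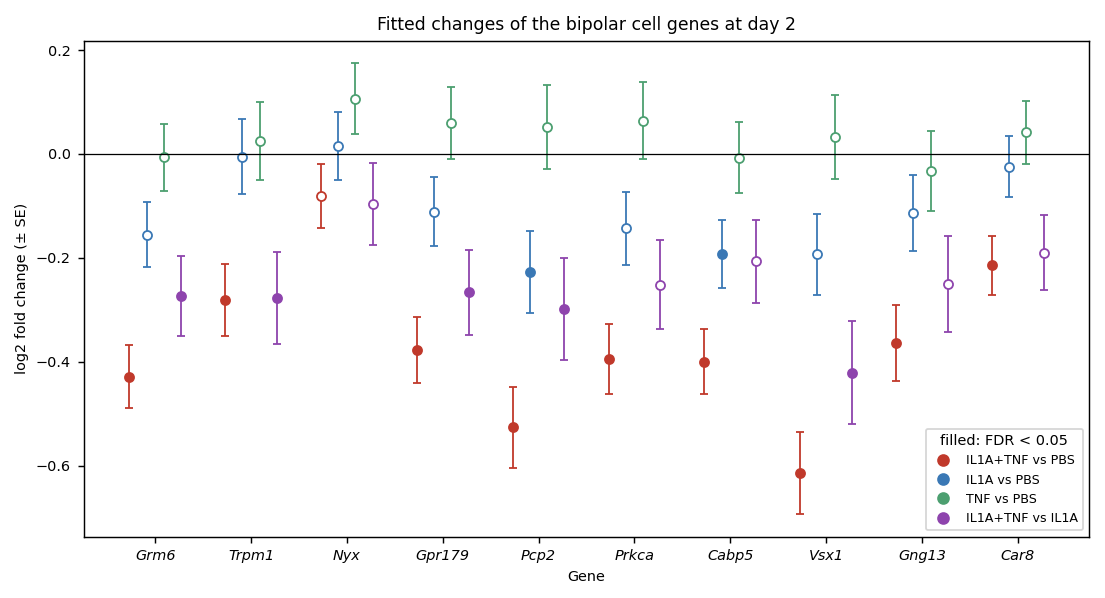
Fitted log2 fold change (± SE, y axis) of each of the 10 genes (x axis) at day 2, for IL1A+TNF, IL1A and TNF against PBS and for IL1A+TNF against IL1A. Filled points have an FDR under 0.05. The IL1A+TNF values were the lowest of the 3 against PBS for every gene, and all TNF values were open and near 0.

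The combination was also compared with each cytokine directly. IL1A+TNF retinas were lower than IL1A retinas for 5 of the 10 genes, where 4.68% of all genes were lower: Vsx1 (−0.42 ± 0.10, limma FDR 0.00320), Pcp2 (−0.30 ± 0.10, limma FDR 0.0404), Trpm1 (−0.28 ± 0.09, limma FDR 0.0331), Grm6 (−0.27 ± 0.08, limma FDR 0.0146) and Gpr179 (−0.27 ± 0.08, limma FDR 0.0249). The levels of Trpm1 with IL1A were 373 to 463 CPM (median 406), inside the PBS range. Against TNF retinas 9 genes were lower, where 19% of all genes were, and Nyx (−0.19 ± 0.08, limma FDR 0.0640) was the exception. These comparisons share the IL1A+TNF retinas with the one against PBS, so they are not independent of it. With scaling to the rod list 4 of these 5 genes and 8 of these 9 changed sign. The test of whether the combination departed from the sum of both single effects was below 0 for all 10 genes under TMM and passed for Vsx1 (−0.45 ± 0.13, limma FDR 0.0334), where 1.82% of all genes were lower. This call was lost with scaling to the rod list, where Vsx1 had −0.10 and the other 9 genes values above 0, and with no filter on low counts (limma FDR 0.0535). Next came Gpr179 (−0.33 ± 0.11, limma FDR 0.0715), Prkca (−0.32 ± 0.11, limma FDR 0.107) and Pcp2 (−0.35 ± 0.13, limma FDR 0.112).

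Sex was a term of the day 2 fit. Nyx, which lies on the X chromosome, was lower in males (−0.26 ± 0.05, limma FDR 0.000985), where 0.184% of all genes were lower, and it was the only one of the 10 that passed. In PBS retinas at day 2 it was at 33.0 ± 3.91 CPM in 15 females and 28.3 ± 4.03 CPM in 16 males (mean ± SD), and the ranges overlapped. Grm6 was at 142 ± 15.9 CPM in females and 132 ± 15.97 CPM in males, and did not pass.

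Later TNF retinas were compared with PBS retinas of the same day. At day 14 (6 against 7 retinas) and at day 35 (9 against 6 retinas) no bipolar cell gene passed by limma, edgeR or DESeq2, 0 had an unadjusted p under 0.05 in limma, and 0% and 0% of all genes were called. The differences ran from −0.09 (Nyx) to 0.05 (Grm6) at day 14 and from −0.06 (Car8) to 0.09 (Gpr179) at day 35, with standard errors of 0.03 to 0.08. Cabp5 was lower in the TNF eye of 4 of 4 mice at day 14 and of 3 of 6 at day 35. At day 35 Gpr179 ranged from 218 to 276 CPM with TNF (median 247) and from 199 to 254 CPM with PBS (median 239). The effect of TNF was not shown to differ between day 14 and day 2 or between day 35 and day 2 (0 of 10 genes each, 0% and 0% of all genes, 1 and 0 with an unadjusted p under 0.05, limma).

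**Figure D3:**
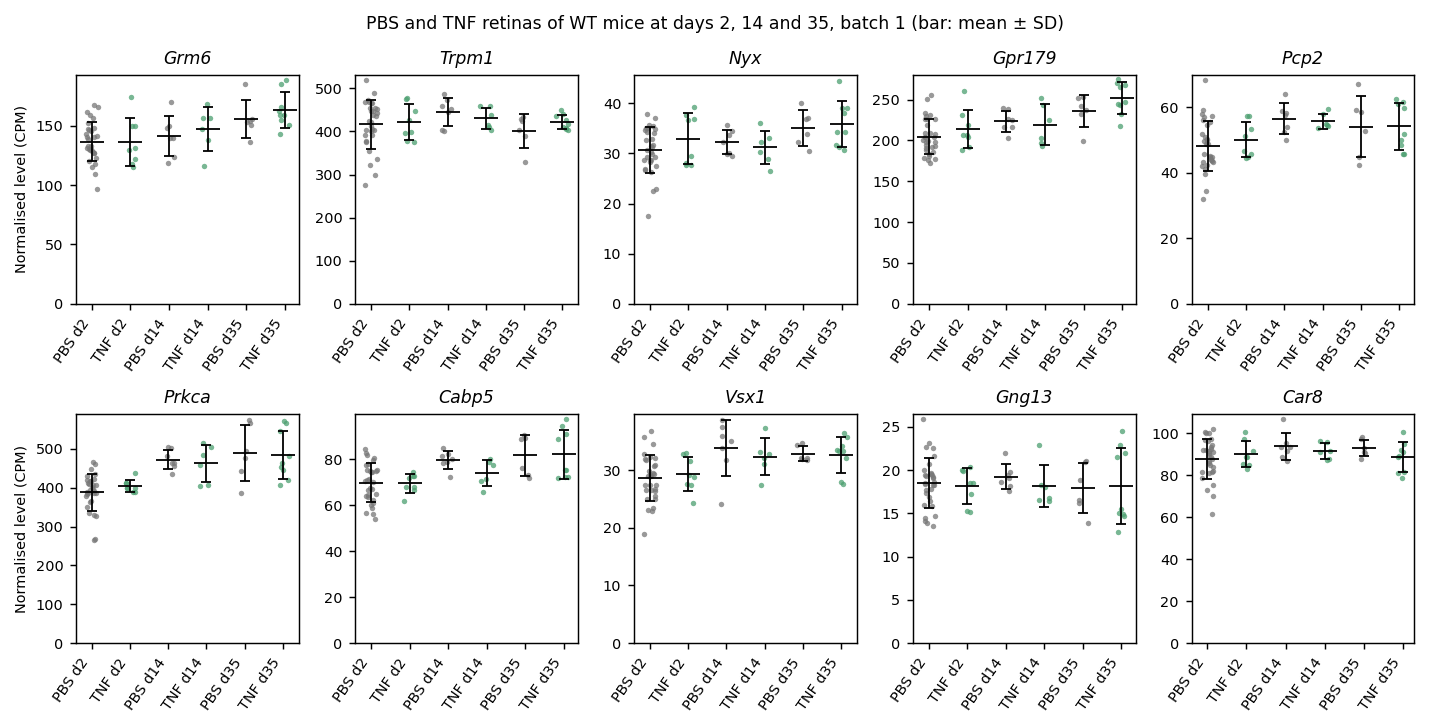
Level of each bipolar cell gene (CPM, linear axes from 0) in the PBS and TNF retinas of batch 1 at days 2, 14 and 35 (d2, d14, d35). Points are retinas and bars mean ± SD. PBS and TNF retinas overlapped at every day, while Prkca and Cabp5 lay higher at the later days than at day 2 in PBS retinas.

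PBS retinas themselves differed between the days. At day 14 Prkca (0.29 ± 0.07, limma FDR 0.00259), Pcp2 (0.25 ± 0.08, limma FDR 0.0319), Vsx1 (0.23 ± 0.08, limma FDR 0.0305) and Cabp5 (0.20 ± 0.07, limma FDR 0.0250) were higher than at day 2, 4 of 10 where 8.68% of all genes were higher. At day 35 Prkca (0.33 ± 0.08, limma FDR 0.000844), Cabp5 (0.23 ± 0.07, limma FDR 0.0101), Gpr179 (0.20 ± 0.06, limma FDR 0.00771), Nyx (0.20 ± 0.08, limma FDR 0.0344) and Grm6 (0.19 ± 0.07, limma FDR 0.0439) were higher, 5 of 10 where 15.4% of all genes were. Prkca, for instance, ranged from 435 to 505 CPM in the 7 PBS retinas of day 14, which came from 6 mice and were fitted without a block, and from 385 to 575 CPM in the 6 of day 35, against 264 to 467 CPM at day 2. Trpm1 and Gng13 had differences of −0.05 at day 35 and did not pass. Microglial genes were lower in 10 of 10 cases at both days (medians −1.32 and −1.90) and rod genes higher in 11 and 14 of 15, and the part of either in these values was not tested. With scaling to the rod list the medians of the 10 genes turned to −0.09 and −0.11, beside −0.20 and −0.30 for all genes. None of these genes was then called higher, Cabp5 changed sign at day 14, and Grm6, Nyx, Gpr179 and Cabp5 did at day 35, whereas Prkca kept its sign at both days. In either direction 1 of the 10 genes at day 14 and 3 at day 35 had an unadjusted p under 0.05 with this scaling (limma). The 3 at day 35 also passed at an FDR under 0.05, and none did at day 14. The share of all genes called with this scaling is not given here. Days differed between groups of mice, so time after injection, age and day of handling cannot be told apart.

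In the Sarm1 experiment both batches were fitted together. Over the 16 IL1A+TNF retinas of WT mice 8 bipolar cell genes were lower than in PBS retinas, where 27% of all genes were, and without the 2 libraries named above 10 of 10 were lower, where 30.8% were (medians −0.44 and −0.46). With scaling to the rod list 6 of the 8 changed sign. Nyx (−0.15 ± 0.12, limma FDR 0.276) and Car8 (−0.29 ± 0.14, limma FDR 0.0667) had not passed with all libraries. In batch 2 the levels of Grm6 were 135, 132, 139, 131 and 123 CPM in the 5 WT PBS retinas and 54.9 to 105 CPM in the 6 WT IL1A+TNF retinas (median 88.2), which did not overlap. Vsx1 was at 26.1, 26.2, 24.8, 23.7 and 24.2 CPM with PBS and 8.79 to 20.3 CPM with IL1A+TNF (median 16.8), again apart. Gpr179, Pcp2 and Prkca did not overlap either, and the remaining 5 genes did. How many of all genes did not overlap was not counted, so these ranges only describe the levels. The left eye of mouse 61721 was lowest for 8 of the 10 genes and the left eye of mouse 61719 for the other two. In batch 2 alone 1 gene passed with all libraries and 10 without the 2. The share of all genes called in batch 2 alone is not given here, so these counts are not set against it.

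Sarm1-/- retinas with IL1A+TNF had lower levels of all 10 genes than Sarm1-/- PBS retinas, where 22.2% of all genes were lower, and the median was −1.22. The largest values were those of Pcp2 (−1.44 ± 0.26, limma FDR 9.62e-06), Grm6 (−1.42 ± 0.28, limma FDR 2.91e-05), Vsx1 (−1.30 ± 0.26, limma FDR 4.81e-05) and Car8 (−1.28 ± 0.25, limma FDR 3.05e-05), and the smallest that of Prkca (−0.56 ± 0.13, limma FDR 0.000209). Trpm1 (−1.20 ± 0.24), Nyx (−1.02 ± 0.22), Gpr179 (−1.14 ± 0.26), Cabp5 (−1.11 ± 0.23) and Gng13 (−1.24 ± 0.26) lay between. All 6 mice gave both eyes, and with mouse as a fixed block 0 of the 10 passed (limma, 2 with an unadjusted p under 0.05). Batch 2 alone gave 5, and the share of all genes is given for neither setting. Without the left eyes of mice 61924 and 61926 none of the 10 passed (limma), 5 had an unadjusted p under 0.05, 6.76% of all genes were lower and the median was −0.23. Grm6 then differed by −0.27 ± 0.12 (limma FDR 0.136), Pcp2 by −0.39 ± 0.15 (limma FDR 0.0723), Trpm1 by −0.28 ± 0.14 (limma FDR 0.171) and Vsx1 by −0.21 ± 0.14 (limma FDR 0.345).

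**Figure D4:**
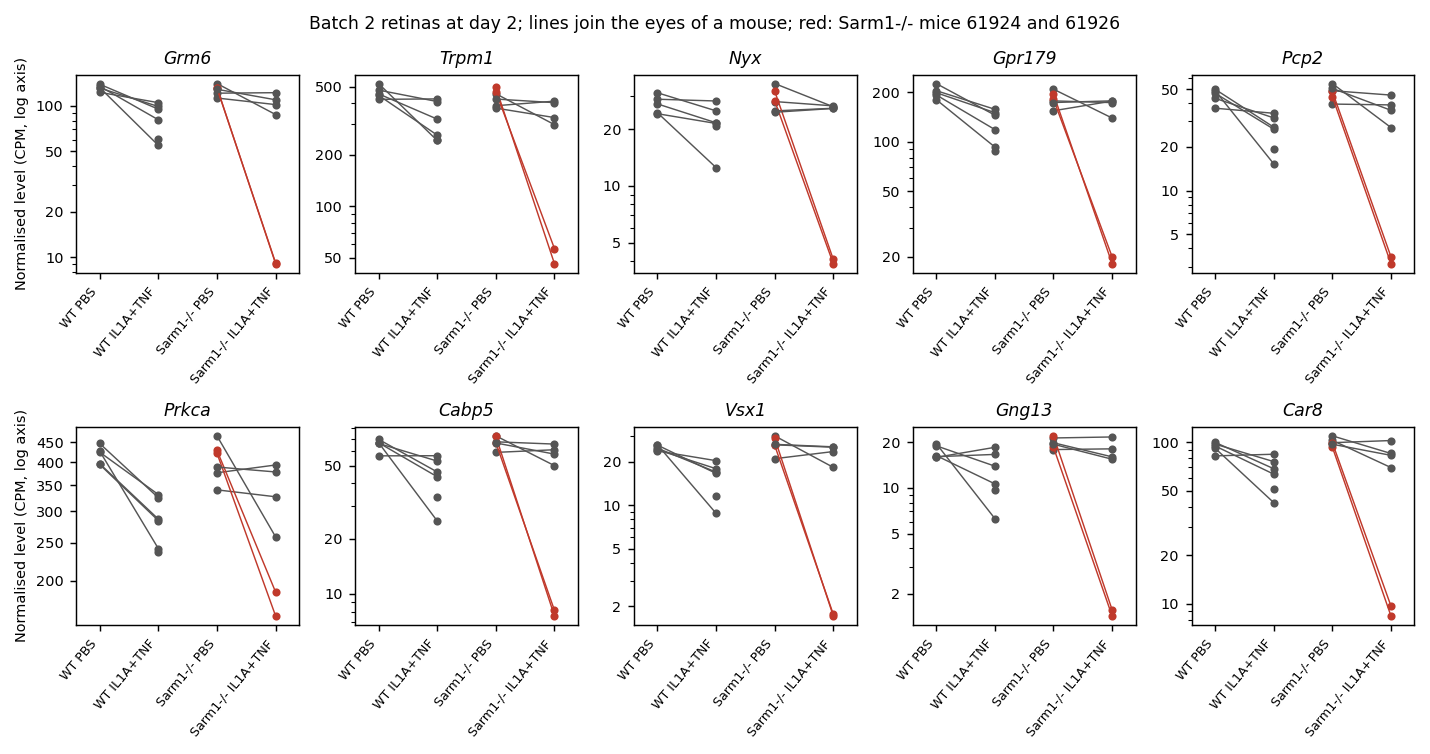
Level of each bipolar cell gene (CPM, log axes) in the batch 2 retinas at day 2, by genotype and treatment. Lines join the PBS and IL1A+TNF eyes of 1 mouse, and red marks the Sarm1-/- mice 61924 and 61926, whose treated eyes lay below all others (Grm6 9.14 and 9.06 CPM, the other 4 treated Sarm1-/- eyes 87.8 to 122 CPM).

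The levels behind these values were as follows. Grm6 was at 87.8 to 122 CPM in the other 4 treated Sarm1-/- retinas and at 113 to 141 CPM in the 6 PBS retinas, Trpm1 at 299 to 410 and 374 to 494 CPM, and Vsx1 at 18.3 to 25.3 and 21.0 to 30.2 CPM. In the left eyes of 61924 and 61926, in that order, Trpm1 was at 46.1 and 56.5 CPM, Vsx1 at 1.71 and 1.76 CPM and Gng13 at 1.57 and 1.43 CPM. Prkca was the least reduced, at 187 and 162 CPM, where the other 4 had 258 to 394 CPM. Set against the PBS eye of the same KO mouse, the treated eyes of 61924 and 61926 held 6.96% and 6.83% of its Grm6 level, 5.87% and 6.75% of its Vsx1 level, 13.7% and 12.9% of its Nyx level, and 43.5% and 38.5% of its Prkca level.

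Genes of other cells were compared in the same libraries. Of the treated Sarm1-/- eyes, the pair lay below the other 4 for 10 of 10 amacrine, 4 of 4 horizontal, 10 of 11 ganglion cell, 11 of 12 other bipolar and 10 of 14 bipolar transcription factor genes, for 6 of 9 Müller glia genes, and for 3 of 15 rod and 4 of 9 cone genes. The share of all genes for which the pair lay below the other 4 was not counted. Against the PBS eye of the KO mouse, in the order 61924 and 61926, the summed level was 16.4% and 21.0% for amacrine genes, 14.9% and 11.2% for horizontal cell genes, 20.8% and 17.8% for ganglion cell genes, 62.3% and 59.4% for rod genes, and 106% and 94.2% for the photoreceptor side of the synapse. Otx2 (225 and 220 CPM, others 201 to 220 CPM), Gnb3 (765 and 756 CPM, others 605 to 843 CPM) and Lrit3 (95.7 and 87.5 CPM, others 52.4 to 68.4 CPM), were not low, nor were Prdm8 (69.1 and 68.8 CPM, others 64.7 to 79.3 CPM), Irx5 (4.74 and 4.40 CPM, others 4.17 to 5.19 CPM) and Kcng4 (53.1 and 45.8 CPM, others 39.6 to 44.5 CPM). Genes in this paragraph were named after their values were seen. Summed neutrophil genes were at 1192 and 1107 CPM (others 144 to 463 CPM), summed microglial genes at 449 and 439 CPM (others 219 to 296 CPM), and summed lens genes at 1.09 and 5626 CPM. Summed Müller glia genes were at 1946 and 2989 CPM (others 2618 to 3993 CPM), and summed pigment epithelium genes at 88.2 and 234 CPM (others 6.97 to 72.8 CPM). What set these libraries apart was not tested.

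**Figure D5:**
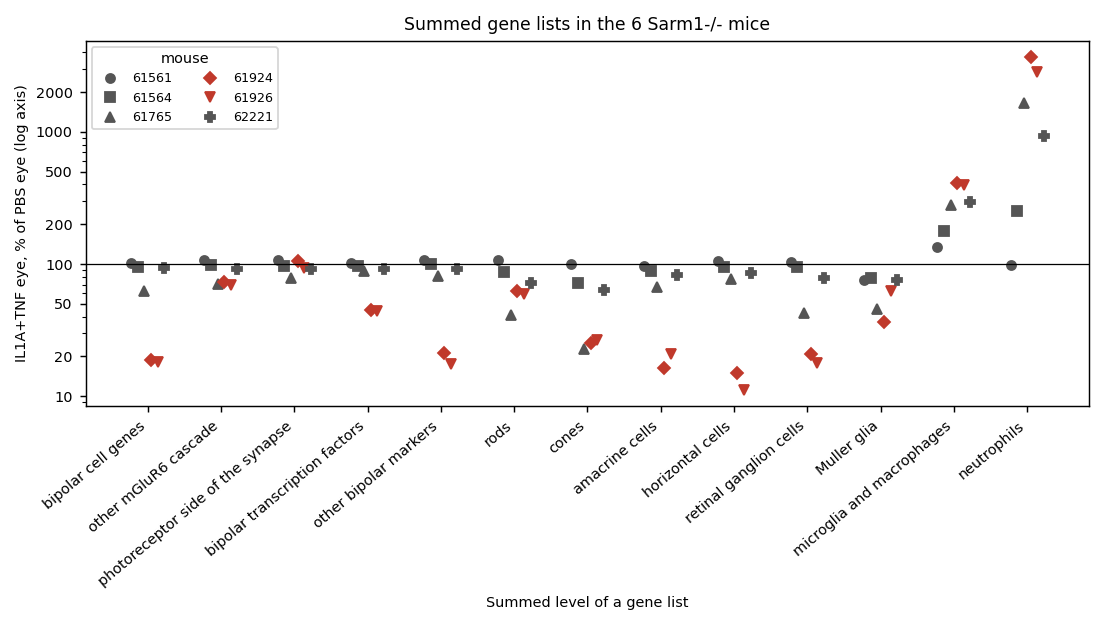
Summed level of each gene list in the IL1A+TNF eye as a percentage of the PBS eye (log y axis), for the 6 Sarm1-/- mice, with lists on the x axis. Red points are mice 61924 and 61926. They lay lowest for the bipolar cell genes, for other bipolar, amacrine, horizontal and ganglion cell genes, and near 100 for the photoreceptor side of the synapse.

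Genotypes were compared within each treatment. In PBS retinas no bipolar cell gene differed between Sarm1-/- and WT (limma, 0 with an unadjusted p under 0.05, 0 by edgeR and DESeq2), where 0.0397% of all genes differed, and without the 2 libraries it was again none (2 with an unadjusted p under 0.05). The largest difference was that of Car8 (0.27 ± 0.23). In IL1A+TNF retinas 5 genes were lower in Sarm1-/- by limma, where 10.8% of all genes were: Grm6 (−0.86 ± 0.26, limma FDR 0.0167), Trpm1 (−0.81 ± 0.22, limma FDR 0.00834), Car8 (−0.72 ± 0.23, limma FDR 0.0260), Gpr179 (−0.69 ± 0.23, limma FDR 0.0331) and Nyx (−0.69 ± 0.21, limma FDR 0.0192). By edgeR and by DESeq2 it was 0. Without the left eyes of mice 61924 and 61926 the direction turned: all 10 differences were above 0 (median 0.32), and Vsx1 (0.57 ± 0.14, limma FDR 0.0215) and Gng13 (0.51 ± 0.14, limma FDR 0.0479) were higher in Sarm1-/-, 2 of 10 where 0.122% of all genes were. In batch 2 alone, which holds all Sarm1-/- retinas, neither passed without these eyes. Without them 8 of the 10 genes had an unadjusted p under 0.05 in the joint fit and 9 in batch 2 alone (limma). Both eyes had been picked after their low levels of these 10 genes were seen. Leaving them out raises the Sarm1-/- mean by construction, so the turn in direction is not a separate test. Without these libraries microglial genes were lower in Sarm1-/- IL1A+TNF retinas in 2 of 10 cases (median −0.60), and their part was not tested.

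The difference between the effects of IL1A+TNF in Sarm1-/- and in WT was below 0 for all 10 genes and passed for 4 of them, where 7.24% of all genes were lower: Car8 (−0.99 ± 0.29, limma FDR 0.0217), Grm6 (−0.94 ± 0.32, limma FDR 0.0477), Nyx (−0.87 ± 0.25, limma FDR 0.0196) and Trpm1 (−0.86 ± 0.28, limma FDR 0.0367). By edgeR and DESeq2 none passed, and leaving out mouse 61924 or mouse 61926 alone also left none. Without both left eyes all 10 values were above 0 (median 0.24) and none passed (limma, 2 with an unadjusted p under 0.05, 0% of all genes lower). The sign of every genotype difference in IL1A+TNF retinas thus rested on these 2 libraries, which were picked after their low levels of these genes were seen.

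Over the 31 PBS retinas at day 2, the tested genes outside the group whose level was most like the mean of the 10 were Hspa12a (Pearson r 0.917), Cntn4 (0.895), Lrtm1 (0.886), Strip2 (0.871), Abcd2 (0.857), Rnf150 (0.854), Herc3 (0.854), Map4 (0.838), Grm5 (0.835) and Ntng1 (0.833), where the median over 19538 genes was 0.00. Of the marker lists, the 12 other bipolar genes were most like it (r of the list means 0.757), and neutrophil (−0.55) and microglial genes (−0.43) ran against it. All these values share the same libraries, and no test was made.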

How the data were processed

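Whole mouse retinas were profiled by polyA RNA-seq. Per the submitters' processing notes STAR 2.7.9a, featureCounts (Subread 2.0.1) and the build mm10 were used, and the deposited values are raw whole-number counts. The annotation release and strand setting are not given in the sources used here. Symbols and positions were taken from GENCODE M21 (GRCm38), promoters from RefSeq. Counts were tested in R 4.3.3 with limma 3.58.1 (voom, TMM, mouse as random block with duplicateCorrelation, sex as covariate, and batch in the Sarm1 fit) after edgeR 4.0.16 filterByExpr with a minimum count of 10. The PBS retinas of different days were fitted without a block. P-values were adjusted by Benjamini-Hochberg over all genes tested and called under 0.05. Within-mouse correlations were 0.0515 (day 2), 0.284 (day 14), 0.0794 (day 35) and 0.00525 (Sarm1 fit). Mouse numbers and eyes come from the labels, so eyes with the same number come from 1 animal. The 10 genes are all named, and of each other list at most 4 genes, those with the smallest FDR, except where the text says that a gene was named after its values were seen. The genes and lists were chosen with earlier results of these data known. Alternatives were other filters, scalings (library total, RLE factors, rod list), blocks and tools (edgeR, DESeq2 1.42.0), batch 2 alone and each treated mouse (in the Sarm1 fit each mouse of batch 2) left out in turn. Scripts were tested on simulated data. One result is not reported here.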

Additional observations from a re-analysis of the deposited data

Results flagged for a closer look

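In 6 of 110 pairs of gene and group (11 groups of 5 to 10 retinas) the highest or lowest retina stood far from the others by Dixon's criterion, which chance alone gives in about 1 in 20 groups. With IL1A+TNF at day 2 Vsx1 was at 29.4 CPM in the right eye of mouse 60780, where the next highest retina had 21.5 CPM. With IL1A Gng13 was at 12.7 CPM in the left eye of mouse 60637, where the next lowest had 16.1 CPM. With TNF at day 2 Prkca was at 438 CPM in the right eye of mouse 60584 (next 411 CPM), and at day 14 Gng13 was at 22.9 CPM in the left eye of mouse 59709 (next 18.2 CPM). In PBS retinas Car8 was at 107 CPM in the right eye of mouse 59710 at day 14 (next 95.5 CPM), and Cabp5 at 56.4 CPM in the left eye of WT mouse 62224 of batch 2 (next 66.0 CPM).

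Vsx1 departed from the sum of the IL1A and TNF effects by −0.45 on the log2 scale. The effect of IL1A+TNF differed between Sarm1-/- and WT retinas by −0.94 for Grm6, −0.86 for Trpm1, −0.87 for Nyx and −0.99 for Car8, and none of these 4 differences passed without the left eyes of mice 61924 and 61926.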

How the results depend on the processing

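The 1297 values recomputed were counts of called genes and log2 fold changes of single genes called in the main fit. A count was the same if it stayed within a set ratio, and a fold change if it kept its sign and its call. By this rule 1073 were the same, 162 were weaker, 11 were stronger, all of them counts, and 51 fold changes changed sign. Where no value shows the cause, the cause was not tested. Counts of called genes in this section are given without the share of all genes. The 9 calls for IL1A+TNF against PBS at day 2 were 9 of 9 with each of the 10 treated mice left out. With scaling to the rod list, which moved the median of all genes to 0.54 there, to 0.22 for IL1A and to −0.20 and −0.30 for PBS retinas at days 14 and 35, values changed sign for IL1A+TNF against PBS at day 2 (Grm6 0.14, Trpm1 0.29, Gpr179 0.20, Pcp2 0.048, Prkca 0.18, Cabp5 0.17, Gng13 0.21, Car8 0.35), against TNF (Grm6 0.15, Trpm1 0.27, Gpr179 0.15, Pcp2 0.017, Prkca 0.13, Cabp5 0.20, Gng13 0.26, Car8 0.32) and against IL1A (Grm6 0.063, Trpm1 0.061, Gpr179 0.076, Pcp2 0.043), for IL1A against PBS (Pcp2 0.0042, Cabp5 0.037), in WT of both batches (Grm6 0.057, Trpm1 0.20, Gpr179 0.095, Prkca 0.11, Cabp5 0.088, Gng13 0.13), and in PBS retinas at day 14 (Cabp5 −0.0067) and day 35 (Grm6 −0.11, Nyx −0.10, Gpr179 −0.10, Cabp5 −0.078). Genes called in either direction under this scaling were 1 against IL1A, 5 against TNF, 0 for the IL1A and TNF interaction and 1 in WT of both batches. They were 0 and 3 at days 14 and 35, 8 for Sarm1-/- against WT in IL1A+TNF and 9 for the genotype interaction. Such calls can have the opposite sign to those under TMM. Scaling to the library total left 0 calls for IL1A and 1 at day 35. With no filter on low counts there was 1 call for IL1A, 0 for the interaction of the cytokines and 3 against IL1A, and more genes were tested. Leaving out each of the 9 treated mice gave 0 to 4 calls for IL1A. Leaving out each of the 12 mice of batch 2 gave 8 to 9 in WT of both batches, 10 to 10 in Sarm1-/-, and 0 to 9 both for the genotypes in IL1A+TNF and for their interaction, where leaving out 61924 or 61926 gave 0 and leaving out 61561, 61564 or 62221 gave 9. Without the left eyes of mice 61924 and 61926, an alternative chosen after seeing the data, the calls were 0 in Sarm1-/-, 2 between genotypes in IL1A+TNF and 0 for the interaction. The genotype difference in IL1A+TNF then became 0.30 for Grm6, 0.11 for Trpm1, 0.27 for Nyx, 0.33 for Gpr179 and 0.31 for Car8, and the interaction 0.24 for Grm6, 0.088 for Trpm1, 0.10 for Nyx and 0.059 for Car8. In batch 2 alone there were 5 calls in Sarm1-/-, 1 in WT, 0 between genotypes and 0 for the interaction. In batch 2 alone and without these eyes there were 10 calls in WT and 0 in the other comparisons, with genotype differences of 0.40 for Grm6, 0.23 for Trpm1, 0.38 for Nyx, 0.45 for Gpr179 and 0.43 for Car8 and interactions of 0.44, 0.32, 0.33 for Grm6, Trpm1 and Nyx and 0.31 for Car8. edgeR and DESeq2 gave 0 calls between genotypes in IL1A+TNF and 0 for their interaction.

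With mouse as a fixed replicate block over mice with both eyes there were 0 calls for IL1A (7 mice) and 0 in Sarm1-/- (6 mice), against 9 for IL1A+TNF at day 2 (8 mice) and 10 in WT of both batches (13 mice). No replicate block at all changed no count. The smallest count of a member outside the 2 libraries was 345.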
